A study of Mus musculus with 15 samples.

Results

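Messenger RNA of 10 genes of cell-cell junctions was followed in primary mouse hepatocytes that were kept either as monolayers or as aggregates. The genes were the connexins Gjb1, Gjb2 and Gja1, the claudins Cldn1, Cldn2, Cldn3 and Cldn4, occludin (Ocln) and the cadherins Cdh1 and Cdh2. The members were every probe set whose platform annotation gave 1 of these symbols alone, which found 25 of 45101 probe sets. Of these, 21 passed a filter for array background and were tested, and each of the 10 genes kept at least 1. The other 4 were Cldn1 1438850_at and 1438851_x_at and Gja1 1438650_x_at and 1415801_at. They correlated with the array background, and both of Cldn1 stayed within 0.1 of it in every group. Those of Gja1 stood above it in 4 h monolayers, 1438650_x_at at 0.24, 0.55 and 0.50 and 1415801_at at 0.04, 0.25 and 0.06, and were not tested.

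The 15 Affymetrix arrays held RNA of hepatocytes from male C57BL/6 mice in 5 groups of 3. Cells taken straight after isolation (t0, called fresh here) gave the baseline. The remaining groups had been cultured, some as monolayers in a tissue culture dish (TCD) and some as suspended aggregates in a rotating wall vessel (RWV), and were sampled at 4 h and at 24 h. No group was genetically altered or treated with an agent, each group had 3 independent biological replicates, and the age of the mice and the number of animals behind a replicate are not given in the sources used here.

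Gap junctions are channels between neighbouring cells. Each is built of connexins, and hepatocytes are known for Gjb1 and Gjb2, whereas Gja1 is better known from other cells of the liver. Tight junctions seal the bile canaliculus between hepatocytes. Claudins form their strands and set which ions pass, with Cldn2 known as a pore former and Cldn1, Cldn3 and Cldn4 as barrier formers, and occludin is a further membrane protein of the strands. Adherens junctions hold cells together through cadherins, and hepatocytes carry both E-cadherin (Cdh1) and N-cadherin (Cdh2).

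Promoter windows of 4 members are shown because their genes differed between the vessels in opposite directions: Cldn4 and Cldn3, lower in aggregates at 24 h, and Gjb2 and Cldn2, higher. Cldn4 and Cldn3 are neighbours on mouse chromosome 5 with 0 protein-coding genes between them in the RefSeq annotation. Each window is the 250 bases before the annotated start, from RefSeq, build GRCm38.p6, read 5′ to 3′ on the gene's strand. Capitals mark matches, on either strand, to the AP-1 motif (TGAGTCA or TGACTCA), the E-box bound by Snail and Zeb factors (CAGGTG) and the TEAD motif (GGAATG), which were chosen after the sequences had been seen. The Cldn4 window is chr5:134946935-134947184, minus strand, and the Cldn3 window is chr5:134985964-134986213, plus strand. The Gjb2 window is chr14:57104703-57104952, minus strand, and the Cldn2 window is chrX:139800558-139800807, plus strand.
Cldn4: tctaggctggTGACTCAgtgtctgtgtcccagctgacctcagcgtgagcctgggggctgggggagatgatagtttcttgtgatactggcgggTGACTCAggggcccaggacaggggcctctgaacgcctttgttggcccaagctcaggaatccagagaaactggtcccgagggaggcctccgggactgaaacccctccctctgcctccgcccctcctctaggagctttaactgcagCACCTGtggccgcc
Cldn3: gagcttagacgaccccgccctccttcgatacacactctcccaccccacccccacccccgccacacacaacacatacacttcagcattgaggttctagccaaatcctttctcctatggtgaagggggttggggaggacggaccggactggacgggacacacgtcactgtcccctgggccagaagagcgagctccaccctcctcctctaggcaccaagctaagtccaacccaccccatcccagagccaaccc
Gjb2: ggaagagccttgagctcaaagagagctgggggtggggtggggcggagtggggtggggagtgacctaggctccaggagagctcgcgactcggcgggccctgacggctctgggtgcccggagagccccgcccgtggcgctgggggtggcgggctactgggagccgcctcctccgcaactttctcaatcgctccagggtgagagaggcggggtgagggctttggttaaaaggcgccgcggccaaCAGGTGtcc
Cldn2: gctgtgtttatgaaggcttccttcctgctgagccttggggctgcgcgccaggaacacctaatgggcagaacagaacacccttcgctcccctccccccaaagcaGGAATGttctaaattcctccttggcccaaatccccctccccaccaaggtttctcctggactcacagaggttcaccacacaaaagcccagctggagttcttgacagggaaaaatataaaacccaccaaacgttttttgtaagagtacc

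The Cldn4 window held 2 AP-1 matches, at 240 to 234 and at 158 to 152 bases before the start, and 1 E-box match read on the other strand (CACCTG) at 14 to 9. The Cldn3 window held none of the 3 motifs. The Gjb2 window held 1 E-box match at 9 to 4 bases, and the Cldn2 window held 1 TEAD match at 147 to 142. No match overlapped another. Among 32851 mouse promoter windows of the same length, 4.46% held the AP-1 motif, 17.2% the E-box and 12.6% the TEAD motif. These matches describe letters only. RefSeq windows were read for 8 of the 10 members, and Cdh1 and Cdh2 were not among them.

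All values are log2 signals from which the median of the 3 fresh arrays had been subtracted in each probe set. A value of 0 is therefore the fresh median, 1 is a doubling from it, and the absolute level of a gene is not known, so levels of different genes cannot be compared. A difference was called when its Benjamini-Hochberg adjusted p, from limma over all 22096 probe sets tested in that comparison, was below 0.05. Errors after ± are standard errors of that fit with 3 arrays per group, unless an SD is named, and the small number of arrays limits the precision. Each gene is described by a lead probe set, namely its most variable one, without the suffix _s_at or _x_at where there was one, and its other probe sets are named beside it. On array TCD 4 h replicate 2 the hybridisation controls had a median of 1.09, against -0.75 to 0.17 on the other arrays, and limma gave it the lowest array weight, 0.204. Without it the calls of Cldn1 1450014_at between the vessels and of Cldn2 1417231_at in 4 h monolayers ended, as given with those genes. The 3' minus 5' gap of the Actb control probe sets lay between -0.45 and -0.43 in monolayers at 24 h and between -0.26 and -0.22 in aggregates, and its part in the differences at 24 h was not tested.

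**Figure D1:**
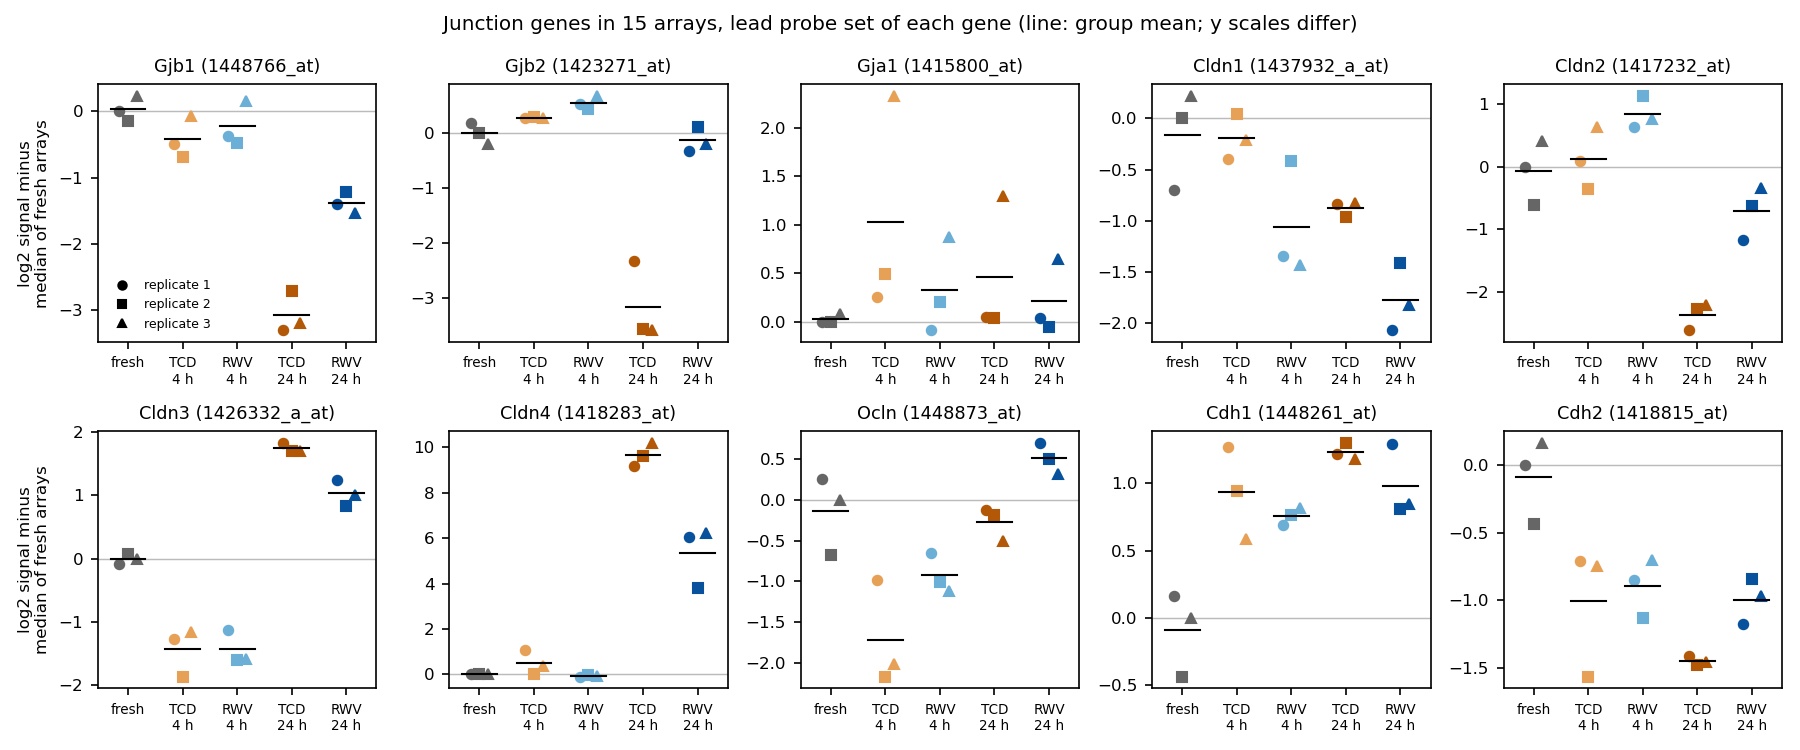
Log2 signal minus the median of the fresh arrays (y axis, scales differ between panels) of the lead probe set of each of the 10 junction genes in 15 arrays, by group (x axis), with symbols for the replicate number and a line for the group mean. Gjb1, Gjb2 and Cldn2 are lowest in monolayers at 24 h, Cldn4 and Cldn3 are highest there, and replicate 3 of Gja1 stands above the other replicates in each cultured group.

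Hepatocyte connexins fell in monolayers by 24 h and stood higher in aggregates at that time. For Gjb1 (1448766_at) the fresh arrays stood at 0.00, -0.14 and 0.23. Monolayers stood at -0.49, -0.69 and -0.07 after 4 h and at -3.30, -2.72 and -3.19 after 24 h. Aggregates stood at -0.37, -0.48 and 0.16 after 4 h and at -1.40, -1.22 and -1.53 after 24 h. Every 24 h aggregate array thus lay between the monolayer arrays of that time and all arrays of the fresh and 4 h groups, while the fresh and 4 h groups overlapped. Aggregates exceeded monolayers at 24 h by 1.68 ± 0.21, a 3.21-fold difference (adjusted p = 0.000259), but not detectably at 4 h (0.19 ± 0.21, adjusted p = 0.69). Both 24 h groups had fallen from fresh cells, monolayers by 3.10 (adjusted p = 1.25e-07) and aggregates by 1.41 (adjusted p = 0.000136). The other probe set of Gjb1, 1448767_s_at, was higher in aggregates at 24 h by 1.48 ± 0.18 (adjusted p = 0.000208). In a bulk sample, fewer cells that carry a transcript and less of it per cell cannot be told apart.

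Gjb2 (1423271_at) showed the largest excess of aggregates over monolayers among the 10 lead probe sets. The fresh arrays stood at 0.19, 0.00 and -0.20, the 4 h monolayers at 0.29, 0.30 and 0.28 and the 4 h aggregates at 0.53, 0.45 and 0.68. After 24 h the monolayers were at -2.33, -3.57 and -3.58 and the aggregates at -0.31, 0.12 and -0.19. The aggregates of 24 h overlapped the fresh arrays, and all 3 monolayers lay far below both. The vessels differed at 24 h by 3.03 ± 0.27, an 8.19-fold difference (adjusted p = 1.9e-05), and by 0.26 ± 0.27 at 4 h (adjusted p = 0.657). Against fresh cells, Gjb2 fell by 3.16 in monolayers (adjusted p = 8.53e-07), while the difference in aggregates was -0.12 (adjusted p = 0.749). With reference genes as the centre, the latter was -0.79 (adjusted p = 0.0185), so whether Gjb2 in aggregates equalled fresh cells depends on the scaling.

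The growth of the vessel difference with time was tested itself, as the difference at 24 h minus that at 4 h. It was 1.49 ± 0.30 for Gjb1 (adjusted p = 0.0084) and 2.77 ± 0.38 for Gjb2 (adjusted p = 0.00125). Without the 4 h monolayer replicate 2 these were 1.63 (adjusted p = 0.00777) and 2.76 (adjusted p = 0.00311).

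Gja1 behaved unlike the hepatocyte connexins, and replicate 3 dominated its lead probe set and 1437992_x_at. Its lead probe set 1415800_at stood at 0.00, 0.00 and 0.07 in fresh cells, within 0.1 of the array background. In monolayers it was at 0.26, 0.49 and 2.33 after 4 h and at 0.05, 0.04 and 1.30 after 24 h. In aggregates it was at -0.09, 0.20 and 0.87 after 4 h and at 0.04, -0.05 and 0.65 after 24 h. Replicate 3 was the highest of its group in all 4 cultured groups, and the vessels overlapped at both times. The same held for 1437992_x_at, whose monolayers at 4 h stood at 0.62, 0.77 and 3.75 and whose aggregates at 24 h stood at 0.89, 0.45 and 2.40. In 1438945_x_at and 1438973_x_at replicate 3 was high in 4 h monolayers, at 1.43 and 0.99. It was not the highest 4 h aggregate there, at -0.04 and -0.01 against 0.06 and 0.01 in replicate 2. In 1438973_x_at the vessels did not overlap at 4 h (-0.46 ± 0.18, adjusted p = 0.173, not called). None of the 4 tested Gja1 probe sets was called between the vessels, and the difference of the lead was -0.70 ± 0.50 at 4 h (adjusted p = 0.497) and -0.25 ± 0.50 at 24 h (adjusted p = 0.884). A fall from 4 h to 24 h in monolayers was called for 1438973_x_at alone (-0.46, adjusted p = 0.0485), and that call ended without 4 h replicate 3 (0.109) or 24 h replicate 1 (0.0927), 2 (0.107) or 3 (0.0905).

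With the replicate number as a block, 2 probe sets of Gja1 passed the threshold in 4 h monolayers against fresh cells. The means of 4 h monolayers and fresh cells, 1.03 and 0.02 for 1415800_at and 1.71 and -0.07 for 1437992_x_at, differed with an adjusted p of 0.186 and 0.11 without the block and of 0.0378 and 0.0237 with it. Of 8 endothelial markers listed, 5 were off the background, and Kdr, Pecam1 and Tek had no probe set off it. Replicate 3 stood high at 4 h in 2 of the 5, Lyve1 and Clec4g. It was high for Lyve1, a marker of sinusoidal endothelium, which stood at 2.09 in the 4 h monolayer and 1.46 in the 4 h aggregate, against -0.14 to 0.69 in the other replicates at 4 h. Clec4g was at -0.67 and -1.74 in replicate 3 at 4 h, against -3.18 to -3.05 in the others, and at 2.71 in fresh replicate 3 against -0.49 and 0.00. The other endothelial markers did not stand out in replicate 3 at 4 h, with Stab2 at 1.15, 1.20 and 1.21 in monolayers and 0.41, 0.73 and 0.43 in aggregates, and Oit3 and Cdh5 between -0.09 and 0.10. Of 5 stellate cell markers off the background, replicate 3 stood high at 4 h in Dcn, at 0.52 and 0.65 against -0.08 to 0.05, and not in Des, Pdgfrb, Ngfr or Reln, where it lay between -0.09 and 0.11. At 24 h Lyve1 was at -0.06 in monolayer replicate 3, where Gja1 was at 1.30, and at 0.30 in aggregate replicate 3. The mean change of the 5 endothelial markers ranged from -0.12 to 0.55 in fresh cells, from -0.30 to 0.54 in 4 h monolayers, from -0.61 to 0.01 in 4 h aggregates, from -0.50 to -0.22 in 24 h monolayers and from -0.997 to -0.326 in 24 h aggregates. Their part in the Gja1 values was not tested.

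Cldn4 went the other way from the hepatocyte connexins, high in monolayers and lower in aggregates. The probe set 1418283_at stood at -0.01, 0.00 and 0.01 in fresh cells and at -0.10, -0.01 and -0.07 in 4 h aggregates, all within 0.1 of the array background. The 4 h monolayers were at 1.06, 0.03 and 0.35. After 24 h the monolayers reached 9.18, 9.62 and 10.20 and the aggregates 6.06, 3.79 and 6.23. All 24 h arrays thus lay far above every earlier array, and all 3 aggregates lay below all 3 monolayers. Aggregates were lower at 24 h by 4.31 log2 units (-4.31 ± 0.52), a 19.8-fold difference (adjusted p = 0.000196). Without aggregate replicate 2, the lowest of its group, the difference was -3.53 (adjusted p = 4.08e-05). At 4 h the difference was -0.54 ± 0.52 (adjusted p = 0.632), and the change of the vessel difference from 4 h to 24 h was -3.77 ± 0.73 (adjusted p = 0.00744). Without the 4 h monolayer replicate 2 that change was -3.54 (adjusted p = 0.0167). Since the 4 h aggregates were at the floor, the 4 h difference could be larger than measured, and the size of the change rests on that floor. The rise from fresh cells was 9.67 in monolayers and 5.36 in aggregates on the log2 scale (adjusted p = 1.85e-08 and 3.95e-06), and because the fresh signal was at the floor these sizes rest on it and no fold is given.

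Cldn3 fell early and rose late in both vessels. Its lead probe set 1426332_a_at stood at -0.08, 0.08 and 0.00 in fresh cells. After 4 h it was at -1.26, -1.86 and -1.16 in monolayers and at -1.12, -1.60 and -1.59 in aggregates, 2 groups that overlapped. After 24 h the monolayers were at 1.83, 1.70 and 1.69 and the aggregates at 1.24, 0.84 and 1.01, without overlap. The fall from fresh cells at 4 h was -1.43 in both vessels (adjusted p = 0.000135 in monolayers and 0.000114 in aggregates), and the later level was above fresh cells by 1.74 in monolayers (adjusted p = 5.11e-06) and by 1.03 in aggregates (adjusted p = 0.000527). The rise in aggregates was 0.37 with that other centring, on reference genes, and not called (adjusted p = 0.0755).

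The vessel difference of Cldn3 at 24 h was -0.71 ± 0.18 (adjusted p = 0.0223). The other 3 probe sets gave -0.82, -0.64 and -0.70, each called, though probe sets of 1 gene on the same arrays are not replicates. All 4 lost the call when arrays were centred on reference genes, with the lead probe set at -0.47 (adjusted p = 0.0699). The lead probe set also lost it when 1 array was left out, namely monolayer replicate 1 (0.0672), 2 (0.0575) or 3 (0.0546) or aggregate replicate 2 (0.0966) or 3 (0.0645), the values being adjusted p. The change of its vessel difference from 4 h to 24 h was -0.70 and not called (adjusted p = 0.104).

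Cldn2, the pore former, was lowest in 24 h monolayers, as Gjb2 was. The lead probe set 1417232_at stood at 0.00, -0.61 and 0.41 in fresh cells, at 0.09, -0.36 and 0.63 in 4 h monolayers and at 0.64, 1.12 and 0.76 in 4 h aggregates. After 24 h the monolayers were at -2.60, -2.27 and -2.20 and the aggregates at -1.17, -0.63 and -0.34. All monolayers of 24 h lay below all other arrays, and the aggregates of 24 h overlapped the fresh arrays. Aggregates exceeded monolayers at 24 h by 1.65 ± 0.30, a 3.13-fold difference (adjusted p = 0.00323). The other probe set, 1417231_at, gave 1.52 ± 0.23 (adjusted p = 0.000838). At 4 h the lead difference was 0.72 ± 0.30 (adjusted p = 0.214).

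A growth of the vessel difference of Cldn2 with time was called in 1 of its probe sets. The change was 1.43 ± 0.32 for 1417231_at (adjusted p = 0.0143) and 0.93 ± 0.43 for 1417232_at (adjusted p = 0.192). Their 95% intervals, 0.73 to 2.13 and -0.01 to 1.86, overlapped, and the probe sets were not tested against each other. Against fresh cells, Cldn2 fell in monolayers by 2.29 at 24 h (adjusted p = 3.64e-05), and in aggregates it was at -0.64 (adjusted p = 0.105). The latter was called when centred on reference genes (-1.31, adjusted p = 0.00168) and without fresh replicate 2 (-0.91, adjusted p = 0.0302). Its rise in 4 h aggregates, 0.91 (adjusted p = 0.0427), ended without any of 5 arrays left out in turn (adjusted p from 0.0587 to 0.159), and centred on reference genes it was 0.61 (adjusted p = 0.0966). In 4 h monolayers 1417231_at was called at 0.67 (adjusted p = 0.0498), a call that ended without any of 5 arrays, among them the deviating replicate 2 (adjusted p from 0.0783 to 0.18, and 0.103 without replicate 2).

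Cldn1, a main barrier claudin of hepatocytes, gave 2 probe sets that differed in their course from fresh cells. The lead probe set 1437932_a_at stood at -0.70, 0.00 and 0.22 in fresh cells, at -0.39, 0.04 and -0.22 in 4 h monolayers and at -1.34, -0.42 and -1.43 in 4 h aggregates. After 24 h it was at -0.84, -0.96 and -0.83 in monolayers and at -2.07, -1.41 and -1.82 in aggregates. The probe set 1450014_at stood at -0.21, 0.00 and 0.19 in fresh cells, at 1.61, 1.39 and 1.48 in 4 h monolayers and at 0.37, 1.12 and -0.27 in 4 h aggregates. After 24 h it was at 0.86, 0.94 and 0.86 in monolayers and at -0.01, -0.37 and -0.02 in aggregates. In both probe sets every aggregate lay below every monolayer at each time, while monolayers were above fresh cells in 1450014_at alone.

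The vessel difference of Cldn1 was close in both probe sets. At 24 h it was -0.89 ± 0.29 for the lead (adjusted p = 0.0587, not called, and 0.0285 with only the 6 arrays compared, 0.0254 with the replicate block and 0.0209 with array weights) and -1.02 ± 0.26 for 1450014_at (adjusted p = 0.0213). At 4 h it was -0.87 ± 0.29 (adjusted p = 0.109, and 0.0547 with the replicate block) and -1.09 ± 0.26 (adjusted p = 0.0323). The 4 h call of 1450014_at ended without monolayer replicate 1, 2 or 3 or aggregate replicate 1 or 3 (adjusted p from 0.0565 to 0.088), and with only the 6 arrays compared its adjusted p was 0.257. Its 24 h call ended without monolayer replicate 2 (0.0702) or 3 (0.0577) or aggregate replicate 2 (0.0905).

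Against fresh cells the direction of Cldn1 is uncertain. The probe set 1450014_at rose by 1.50 in monolayers at 4 h (adjusted p = 0.00124) and stood 0.89 above fresh cells at 24 h (adjusted p = 0.0117), which turned to -0.01 when arrays were centred on reference genes. The lead was at -0.03 in 4 h monolayers (adjusted p = 0.963) and at -0.72 in 24 h monolayers (adjusted p = 0.0533), which was -1.62 and called with reference genes as the centre (adjusted p = 0.000189). In aggregates the lead fell by 0.90 at 4 h (adjusted p = 0.0345) and by 1.61 at 24 h (adjusted p = 0.00054), while 1450014_at was at 0.41 and -0.12 and not called. The 4 h fall of the lead ended without aggregate replicate 1 (0.118) or 3 (0.135) or fresh replicate 2 (0.0972) or 3 (0.123). From 4 h to 24 h in monolayers the lead was at -0.69 (adjusted p = 0.0638, and 0.0288 with the replicate block).

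**Figure D2:**
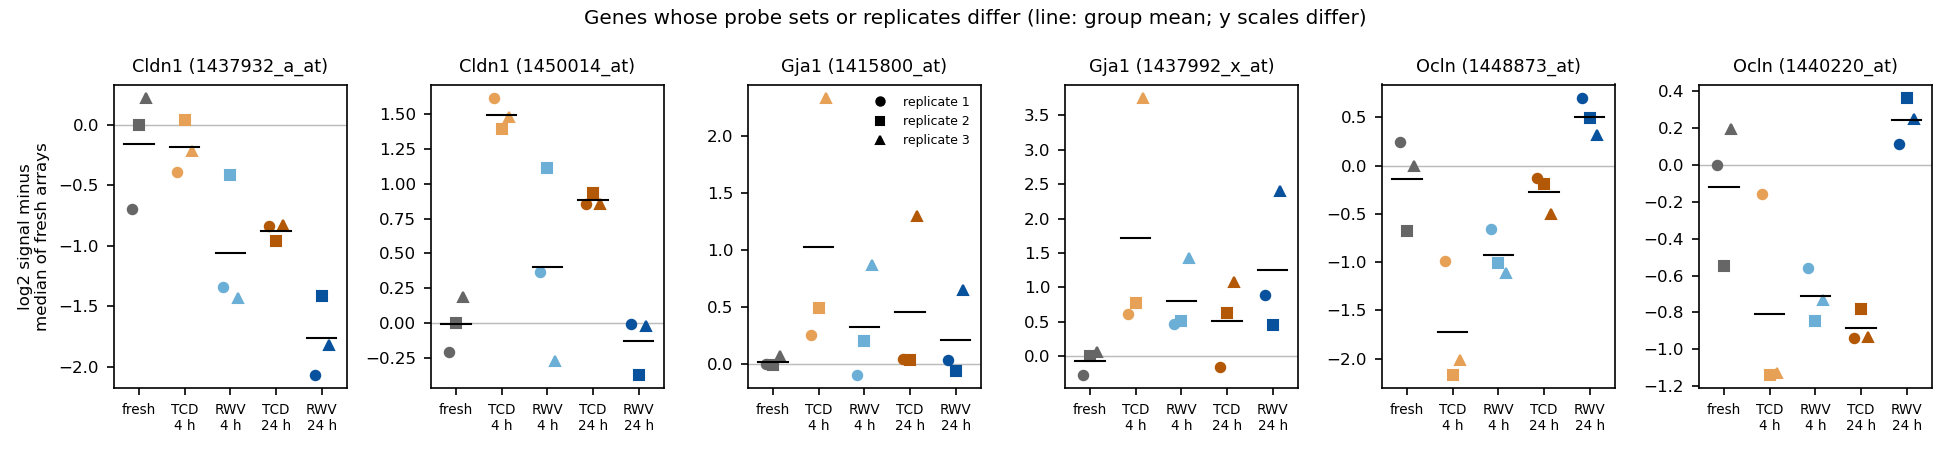
Log2 signal minus the median of the fresh arrays (y axis, scales differ between panels) for 2 probe sets each of Cldn1, Gja1 and Ocln in 15 arrays, by group (x axis), with symbols for the replicate number and a line for the group mean. The probe sets of Cldn1 differ in where monolayers stand relative to fresh cells, those of Gja1 share a high replicate 3 in the cultured groups, and those of Ocln differ in the 24 h monolayers.

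By its lead probe set occludin dropped early in monolayers, and under some alternatives a drop was called in aggregates too. At 24 h both probe sets stood higher in aggregates, a difference called in 1 of them. The lead probe set 1448873_at was at 0.25, -0.68 and 0.00 in fresh cells, at -0.99, -2.16 and -2.01 in 4 h monolayers and at -0.66, -1.01 and -1.11 in 4 h aggregates. After 24 h it was at -0.13, -0.19 and -0.50 in monolayers and at 0.70, 0.50 and 0.32 in aggregates. The 24 h aggregates lay above all other arrays, and the 24 h monolayers overlapped fresh cells. Ocln fell by 1.58 from fresh cells in 4 h monolayers (adjusted p = 0.00225; -1.35 and 0.00972 without replicate 2), a call that ended with only the 6 arrays compared (adjusted p = 0.0766). In 4 h aggregates it was at -0.78 (adjusted p = 0.0718). That fall was called with the replicate block (adjusted p = 0.0192), array weights (0.0382), reference genes as the centre (0.00954) and without fresh replicate 2 (0.0248). Ocln rose from 4 h to 24 h by 1.45 in monolayers (adjusted p = 0.00136) and by 1.43 in aggregates (adjusted p = 0.00222). The other probe set, 1440220_at, was at -0.69 in 4 h monolayers against fresh cells (adjusted p = 0.0638) and differed by -0.08 between 24 h and 4 h in monolayers (adjusted p = 0.801), and it rose by 0.95 in aggregates (adjusted p = 0.00824, and 0.0669 with reference genes as the centre).

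At 4 h the vessels overlapped in both probe sets of Ocln. The difference then was 0.79 ± 0.30 in the lead (adjusted p = 0.16) and 0.09 ± 0.24 in 1440220_at (adjusted p = 0.879). Without monolayer replicate 1 that of the lead was 1.16 and called (adjusted p = 0.021). The vessel difference of Ocln at 24 h was 0.78 ± 0.30 in the lead probe set (adjusted p = 0.113, and from 0.0253 to 0.0485 under 4 of the alternatives) and 1.12 ± 0.24 in 1440220_at (adjusted p = 0.00874). In 1440220_at the monolayers of 24 h stood at -0.94, -0.78 and -0.93 and the aggregates at 0.11, 0.36 and 0.25. That probe set was below fresh cells in 24 h monolayers (-0.77, adjusted p = 0.0189), where the lead was not (-0.13, adjusted p = 0.751, and -1.03, adjusted p = 0.00633, with reference genes as the centre). The former call ended without monolayer replicate 1 (0.0517) or 3 (0.0531) or fresh replicate 1 (0.0585) or 3 (0.0786).

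The cadherins moved with culture and in opposite directions, and neither was called between the vessels, though Cdh2 at 24 h was called under some alternatives. Cdh1 (1448261_at) stood at 0.16, -0.44 and 0.00 in fresh cells. It was at 1.27, 0.94 and 0.59 in 4 h monolayers, at 0.69, 0.77 and 0.82 in 4 h aggregates, at 1.22, 1.30 and 1.18 in 24 h monolayers and at 1.29, 0.81 and 0.85 in 24 h aggregates. Every cultured array lay above every fresh array, and the 4 cultured groups overlapped with their neighbours in level. Cdh1 rose from fresh cells by 1.02 and 0.85 at 4 h (adjusted p = 0.00195 in monolayers and 0.0054 in aggregates) and by 1.32 and 1.07 at 24 h (adjusted p = 6.97e-05 and 0.000496). The rises at 24 h were 0.42 and 0.41 when centred on reference genes and not called (adjusted p = 0.0689 and 0.0809). The 4 h call in monolayers ended with only the 6 arrays compared (adjusted p = 0.0603). The vessel difference was -0.18 ± 0.19 at 4 h and -0.25 ± 0.19 at 24 h (adjusted p = 0.677 and 0.474), with a 95% interval from -0.66 to 0.16 at 24 h.

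Cdh2 (1418815_at) stood at 0.00, -0.44 and 0.16 in fresh cells. It was at -0.71, -1.56 and -0.75 in 4 h monolayers, at -0.85, -1.13 and -0.70 in 4 h aggregates, at -1.41, -1.48 and -1.45 in 24 h monolayers and at -1.18, -0.85 and -0.97 in 24 h aggregates. Every cultured array lay below every fresh array. Cdh2 fell by 0.91 and 0.80 at 4 h (adjusted p = 0.00994 in monolayers and 0.017 in aggregates) and by 1.35 and 0.91 at 24 h (adjusted p = 0.000199 and 0.00466). With only the 6 arrays compared the 4 h fall in monolayers was not called (adjusted p = 0.127), and without the deviating replicate 2 it was -0.64 (adjusted p = 0.0222). The 4 h fall in aggregates ended without aggregate replicate 2 (0.0695) or fresh replicate 1 (0.0543) or 3 (0.0659). The other probe set, 1449244_at, was lower by 0.19 to 0.36 in the 4 groups and not called in any. The vessel difference at 24 h was 0.45 ± 0.22 (adjusted p = 0.226), with a 95% interval from -0.03 to 0.93, and all 3 aggregates lay above all 3 monolayers. It was called with only the 6 arrays compared (adjusted p = 0.0351), with array weights (adjusted p = 0.0376) and when centred on reference genes (0.69, adjusted p = 0.0488).

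Counted over probe sets, more members were called between the vessels at 24 h than at 4 h, and so were more of all probe sets tested. The share of members called at 4 h was near that of all. At 4 h 0 of 21 member probe sets were higher in aggregates and 1 was lower, where 5.39% of all probe sets tested were called (4.68% higher and 0.706% lower). At 24 h 6 were higher and 6 lower, against 14.4% of all (7.88% higher and 6.48% lower). Over lead probe sets, 3 of 10 genes were higher (Gjb1, Gjb2, Cldn2) and 2 lower (Cldn3, Cldn4). Centred on reference genes, 8 probe sets were higher and 2 lower at 24 h, since the 4 of Cldn3 were no longer called. That centring called 4316 of all 22096 probe sets higher and 816 lower. The median size of the difference, without regard to sign, was 0.83 for the 10 lead probe sets at 24 h and 0.23 for those of all genes. At 4 h these medians were 0.40 and 0.19. The genes were picked with earlier results of these arrays known, so these counts describe the members and test nothing about them as a group.

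**Figure D3:**
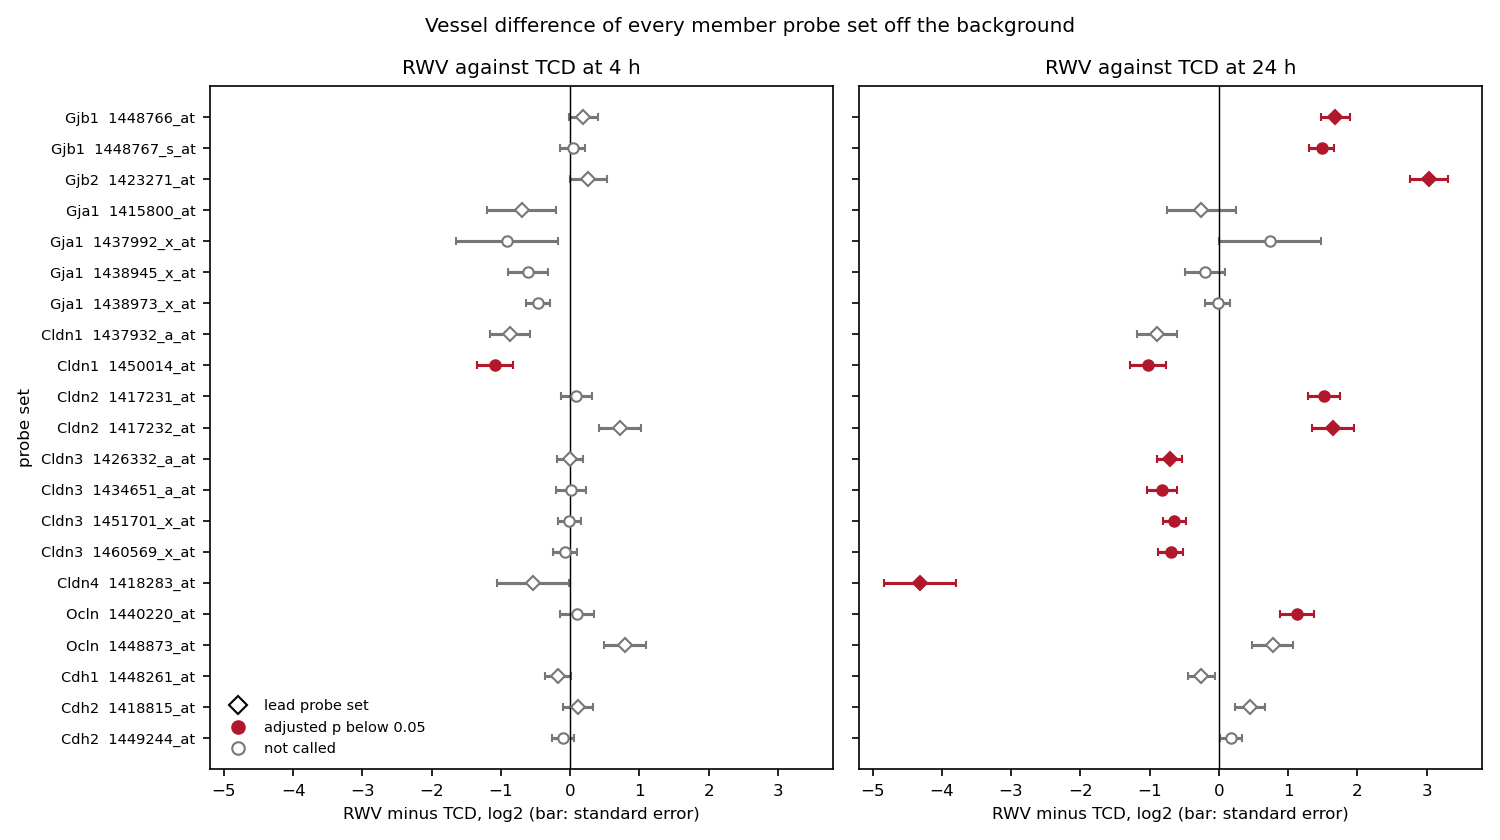
Difference between RWV and TCD (x axis, log2) for each of the 21 member probe sets (y axis) at 4 h and at 24 h, with bars for the standard error, diamonds for lead probe sets and filled symbols for an adjusted p below 0.05. At 4 h 1 probe set of Cldn1 is filled, and at 24 h 6 are filled to the right, for Gjb1, Gjb2, Cldn2 and Ocln, and 6 to the left, for Cldn1, Cldn3 and Cldn4.

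The vessel difference itself changed from 4 h to 24 h in 5 of 21 member probe sets, 4 upward and 1 downward, against 11.5% of all (4.52% upward and 6.96% downward). They were both probe sets of Gjb1, that of Gjb2, 1417231_at of Cldn2 and that of Cldn4. Of the genes with a vessel call at 24 h, Cldn1, Cldn3 and Ocln did not pass this test in any probe set, so a change with time was not shown for them. With reference genes as the centre 8 passed, 7 upward and 1 downward, where 6124 of all 22096 passed upward and 863 downward.

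Comparisons with fresh cells share the 3 fresh arrays and are given side by side. In monolayers 3 of 21 member probe sets were higher and 6 lower at 4 h, where 22.9% of all were called (9.18% higher and 13.7% lower), and 7 were higher and 7 lower at 24 h, against 52.5% (30.9% higher and 21.6% lower). In aggregates 3 were higher and 6 lower at 4 h, against 27.6% (14.3% higher and 13.2% lower), and 6 were higher and 4 lower at 24 h, against 45.9% (28.9% higher and 17.1% lower). Centred on reference genes, which moved the median of all probe sets to -0.91 in 24 h monolayers and to -0.65 in 24 h aggregates, the splits at 24 h were 5 higher and 12 lower in monolayers and 2 higher and 11 lower in aggregates. Of all 22096 probe sets, 2905 were then higher and 14437 lower in monolayers, and 2919 and 12705 in aggregates. At 4 h the member splits were 2 and 7 in monolayers and 1 and 9 in aggregates. Those of all probe sets at 4 h were 1608 and 4969 in monolayers and 2347 and 10046 in aggregates. Changes from fresh cells are therefore relative to all genes. By their lead probe sets, Gjb1, Cldn4 and Cdh2 kept their direction and their call at 24 h under either centring in both vessels.

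From 4 h to 24 h in monolayers 6 of 21 member probe sets rose and 6 fell, where 50.8% of all were called (32.9% higher and 17.9% lower). In aggregates 7 rose and 4 fell, against 38.4% (24.7% higher and 13.6% lower). In both vessels Cldn4, Cldn3 and Ocln rose and Cldn2 and Gjb1 fell by their lead probe sets. Gjb2 fell by 3.45 in monolayers (adjusted p = 6.33e-07) and was at -0.68 in aggregates (adjusted p = 0.0673). The splits were 6 up and 14 down in monolayers and 6 up and 7 down in aggregates when centred on reference genes. Under that centring 3231 of all 22096 probe sets rose and 12884 fell in monolayers, and 3176 rose and 8891 fell in aggregates.

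**Figure D4:**
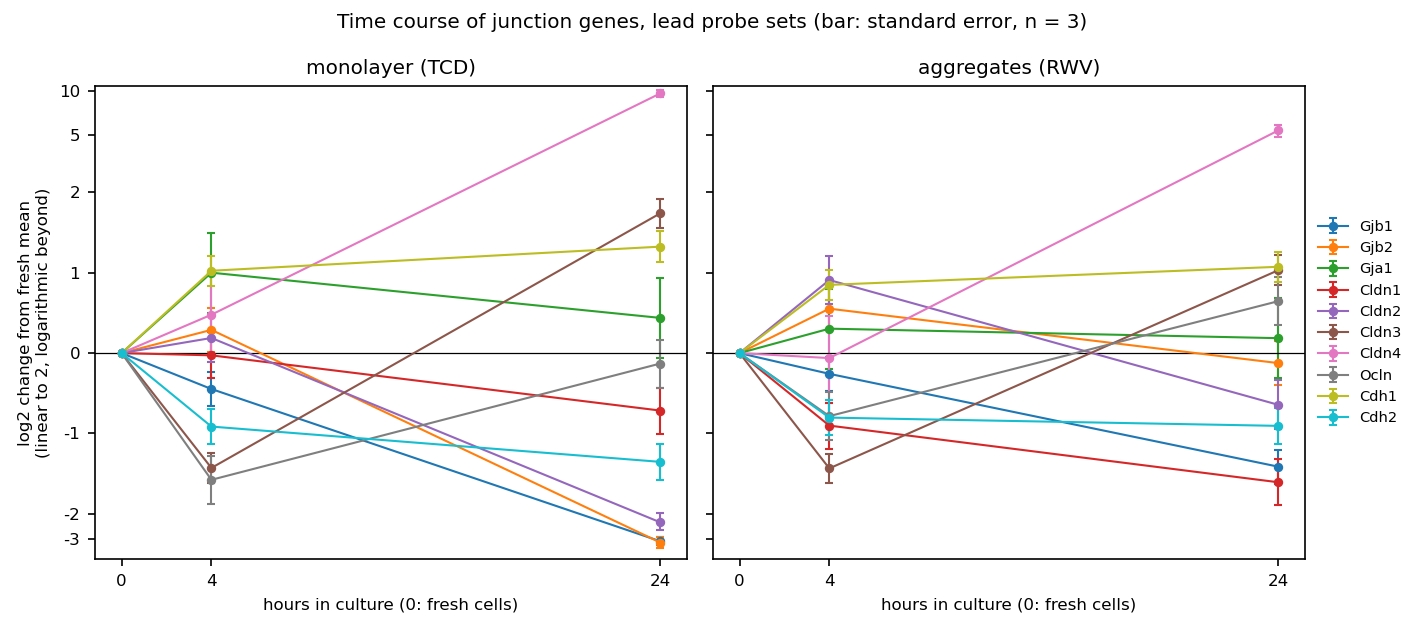
Mean log2 difference from fresh cells (y axis, linear to 2 and logarithmic beyond) of the lead probe set of each junction gene against hours in culture (x axis), for monolayers and aggregates, with bars for the standard error (3 arrays per group). Gjb1, Gjb2 and Cldn2 reach -3.10, -3.16 and -2.29 in monolayers at 24 h and -1.41, -0.12 and -0.64 in aggregates, and Cldn4 reaches 9.67 and 5.36.

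The order of the 5 groups, by the mean of the lead probe set, was shared by few members. For Gjb1 it ran from 24 h monolayers over 24 h aggregates to 4 h monolayers, 4 h aggregates and fresh cells, of which the last 3 overlapped. For Gjb2 and Cldn2 it ran from 24 h monolayers over 24 h aggregates, fresh cells and 4 h monolayers to 4 h aggregates. In both, the 24 h aggregates and fresh cells overlapped as neighbours. For Cldn3 both 4 h groups, which overlapped, were lowest, then fresh cells, 24 h aggregates and 24 h monolayers without overlap. Cldn4 ended in the same 2 groups, 24 h aggregates and then 24 h monolayers. For Ocln both 4 h groups, which overlapped, were lowest, then 24 h monolayers and fresh cells, which overlapped, and 24 h aggregates apart above them. For Cldn1 the 24 h aggregates, 4 h aggregates and 24 h monolayers overlapped as neighbours below 4 h monolayers and fresh cells, and for Gja1 all neighbours overlapped, from fresh cells at the bottom to 4 h monolayers at the top.

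Other genes of the 3 junction types were read from lists written with earlier results of these arrays known. At 24 h, 8.35% of all 12423 genes were higher in aggregates and 6.91% lower by their lead probe sets. Of 18 further claudins and tight junction membrane proteins 4 were higher and 1 lower. Marveld2 (tricellulin, which seals the corners where 3 cells meet) was higher by 1.12 ± 0.35 (adjusted p = 0.0491), Lsr, the receptor that recruits it there, by 0.93 ± 0.22 (adjusted p = 0.0136) and Igsf5, a junction adhesion molecule, by 0.68 ± 0.14 (adjusted p = 0.00595). Cldn23 was lower by 2.50 log2 units (-2.50 ± 0.30, adjusted p = 0.000179), with a mean of 4.39 in 24 h monolayers and 1.89 in 24 h aggregates. Cldn14 was called at both times and in opposite directions, at -0.83 at 4 h (adjusted p = 0.0112) and at 0.53 at 24 h (adjusted p = 0.0416), with a change between the times of 1.35 (adjusted p = 0.00294).

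Among 23 genes of the tight junction plaque and of cell polarity 1 was higher and 1 lower at 24 h. Tjp3, a scaffold protein under the tight junction, was higher by 1.66 ± 0.49 (adjusted p = 0.0405), and Prkci, the atypical protein kinase C of the polarity complex, was lower (-3.19 ± 0.25, adjusted p = 7.99e-06). Prkci stood at a mean of 3.46 in 24 h monolayers and 0.27 in 24 h aggregates. At 4 h, where 5.31% of all genes were higher and 0.636% lower, Amot, an angiomotin of the junction plaque, was higher in aggregates by 1.66 ± 0.25 (adjusted p = 0.0035).

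Partners of the cadherins were read beside all genes, of which 8.35% were higher and 6.91% lower in aggregates at 24 h. Of 19 catenins, nectins and adherens plaque genes 0 were higher and 1 was lower at 24 h, namely the p120 catenin relative Arvcf (-0.53 ± 0.14, adjusted p = 0.028). Against fresh cells at 24 h, 10 of these 19 were higher and 0 lower in monolayers, and 13 were higher and 0 lower in aggregates, where 32.4% and 30.4% of all genes were higher and 23.2% and 18.9% lower. Of 9 desmosome genes and 11 further cadherins 0 were called between the vessels at 24 h. Of 5 measured repressors of Cdh1, 1 was called, the E-box factor Tcf4, higher in aggregates by 0.95 ± 0.24 (adjusted p = 0.0219). Of 6 further connexins and pannexins off the background 0 were called between the vessels at either time. Lists this short cannot set their shares of vessel calls apart from those of all genes.

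Genes with the most similar courses were sought by the root mean square difference over the 4 cultured group means, each minus the fresh mean, among 12422 genes. For Gjb1 they were Slc26a1 (0.099), Qprt (0.187) and Slc37a4 (0.188), which stood in 24 h monolayers at -2.95, -2.85 and -3.05. For Gjb2 they were Pitpnc1 (0.364), Cep85 (0.418) and Slc35d2 (0.463), and for Cldn2 the same 3 genes, Slc35d2 (0.162), Pitpnc1 (0.208) and Cep85 (0.292). For Cldn3 they were Spidr (0.217), Heatr5a (0.251) and Ttc21b (0.294). For Cldn4 they were Anxa3 (0.329), Ndufa4l2 (0.567) and Pfkp (1.08), of which Anxa3 stood at 9.24 in 24 h monolayers and 5.65 in 24 h aggregates. Each distance compares 4 means of the same 15 arrays and carries no test.

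The label of the cells was set against markers of liver cell types. Of 9 hepatocyte markers all 9 were measured off the background, and their mean change at 24 h lay between -1.79 and -1.64 in monolayers and between -1.80 and -1.51 in aggregates. Their median difference from fresh cells at 24 h was -1.75 in monolayers and -0.85 in aggregates. The markers ranged widely at 24 h, with Alb between -0.19 and -0.03 and Cps1 between -5.33 and -2.58. Single hepatocyte markers differed between the vessels in both directions, with 3 of 9 higher in 24 h aggregates (Hnf4a by 1.45, Cebpa by 1.37 and Apob by 0.90) and 1 lower (Cps1, -1.55). Cholangiocytes, the bile duct cells in which Cldn4 is known to be expressed, had 3 of 8 listed markers off the background, with 5 on the array. Their mean change lay between -0.20 and 0.62 in fresh cells, between 2.21 and 2.77 in 4 h monolayers and between 1.98 and 2.27 in 4 h aggregates, where Cldn4 was at background. At 24 h it lay between 2.74 and 3.97 in 24 h monolayers and between 0.82 and 1.29 in 24 h aggregates. Krt19 was at 2.75, 4.60 and 5.37 in 24 h monolayers and at -0.06, -0.04 and -0.11 in 24 h aggregates, and Epcam was lower in 24 h aggregates by 1.11 log2 units (-1.11 ± 0.24, adjusted p = 0.00774). Krt7 and Cftr had no probe set off the background.

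The cholangiocyte mean at 4 h rested on Sox9, which stood at 6.84, 8.07 and 6.49 in 4 h monolayers and at 6.16, 6.48 and 5.95 in 4 h aggregates, while Krt19 lay between -0.07 and 0.09 and Epcam between 0.03 and 0.72 there. In aggregates that mean was lower at 24 h than at 4 h, while Cldn4 and Cldn3 rose over the same time. At 24 h the mean was higher in monolayers than in aggregates without overlap, as were Cldn4 and Cldn3, and its part in those vessel differences was not tested. Stellate cell markers, 5 of 8 off the background, also separated the vessels at 24 h, with means from 1.02 to 1.18 in monolayers and from -0.05 to 0.38 in aggregates. That rested on Reln, which stood at 5.90, 5.76 and 5.41 in monolayers and at 2.06, -0.04 and 0.20 in aggregates, and Col1a1, Col3a1 and Lrat followed the background. Kupffer cell markers, 7 of 8 off the background, had means from 1.03 to 1.79 in 24 h monolayers and from 1.10 to 2.94 in 24 h aggregates, which overlapped, and Timd4 followed the background. Single Kupffer markers moved both ways at 24 h. Cd68 was at 9.77, 10.17 and 10.03 in monolayers and at 8.71, 8.79 and 8.84 in aggregates. Marco was at -0.018, -0.021 and 0.355 in monolayers and at 3.12, -0.02 and 2.14 in aggregates. Of the 7, 0 were called higher in aggregates and 1 lower. Of the endothelial markers Stab2 was lower in 24 h aggregates (-2.36 ± 0.30, adjusted p = 0.000309). The part of these cell types in the 24 h differences of the junction genes was not tested.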

How the data were processed

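RNA of 15 samples of primary mouse hepatocytes, 3 per group, was extracted with RNeasy Mini and labelled with MessageAmp II-Biotin, per the labels' protocols. The deposited values are log2 signals that the authors made with GCRMA, per the submitters' processing notes, with no version stated there. Tested on the values, the fresh median was 0 in all 45101 probe sets (tolerance 1e-06), so the authors' table holds changes from fresh cells and no levels, and array background could shift low signals.

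Gene names came from the platform annotation, which gave 1 symbol to 34945 probe sets, several to 932 and none to 9160, with 64 controls. A probe set was left out as background when its SD was below 0.5 and its correlation above 0.8 with each array's median over the 20% of probe sets that varied least. The remaining 22096 with 1 symbol, for 12423 genes, were fitted with limma 3.58.1 in R 4.3.3 over all 15 arrays without a block, with Benjamini-Hochberg adjustment within each comparison. The fit was tested on simulated data, and Python 3.11.15, pandas 2.3.3 and matplotlib 3.10.9 made the summaries and plots.

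The genes named were all 10 members, up to 3 called genes each way at 24 h and 2 at 4 h from each junction list, and the 3 nearest neighbours by course of each member called by its lead probe set at 24 h. Members and lists were chosen with earlier results of these data known. Replicates are called independent by the series' design, but nothing says whether each is 1 animal or a pool. Same-numbered arrays deviated together (every correlation above 0.1) in 5 of 10 pairs of groups, among them fresh cells with both 4 h groups (0.24 to 0.31), the 4 h groups with each other (0.34 to 0.49) and the monolayers of 4 h and 24 h (0.10 to 0.21), and in 15 of 15 arrays the best match had the same number. Blocked values are given beside results of those comparisons where the call changed. Alternatives were no background filter, 1 probe set per gene, only the groups compared, the replicate block, array weights, 2 other centrings and leaving out each array. No pair of arrays was identical.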

Additional observations from a re-analysis of the deposited data

Results flagged for a closer look

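The vessel difference of 3 junction genes itself changed between 4 h and 24 h, by the limma test of the change over all 15 arrays. The difference of aggregates from monolayers at 24 h minus that at 4 h was 1.49 for Gjb1 (adjusted p = 0.0084, range 0.00625 to 0.0243 when each array was left out in turn). For Gjb2 it was 2.77 (adjusted p = 0.00125), with values from 2.56 to 3.19 when each array was left out. For Cldn4 it was -3.77 (adjusted p = 0.00744, range 0.00179 to 0.0219 when each array was left out). The 4 h aggregates of Cldn4 were within 0.1 of the background, so the size of that change rests on the floor of the signal. In Gjb1 and Gjb2 the 24 h aggregates lay above the 24 h monolayers in 3 of 3 arrays, and in Cldn4 below them in 3 of 3.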

How the results depend on the processing

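Of 90 lead probe set results (10 genes in 9 comparisons) 41 were called, 31 stayed called under every alternative run, and 0 called results changed sign. Many of all genes were called too by their lead probe sets. Between the vessels at 4 h 5.31% were higher and 0.636% lower, and in 24 h monolayers against fresh 32.4% and 23.2%. How many calls of all genes stayed under every alternative was not counted, so these numbers describe the members only. With 1 probe set per gene the counts of member probe sets called were 0 (vessels at 4 h), 5 (vessels at 24 h), 3 (change of the vessel difference), 4 and 5 (monolayers and aggregates at 4 h against fresh), 7 and 6 (at 24 h against fresh) and 6 and 5 (24 h against 4 h), because fewer probe sets were counted. Of all 12423 genes so counted, 683 were higher and 83 lower between the vessels at 4 h, and 1038 and 852 at 24 h. The change of the vessel difference had 613 upward and 960 downward. Against fresh cells at 4 h there were 1185 and 1979 in monolayers and 1880 and 1791 in aggregates. Against fresh cells at 24 h there were 4076 and 2905, and 3817 and 2386. From 4 h to 24 h there were 4481 and 2424, and 3282 and 1882. The vessel count at 4 h, 1, was 6 of 25 with no background filter and 0 with only the groups compared, which also took monolayers at 4 h against fresh from 9 to 5. Without the filter 2250 of all 34945 probe sets were higher between the vessels at 4 h and 12788 lower. With only the groups compared 23 of 22096 were higher and 4 lower, and 1128 and 1147 in 4 h monolayers against fresh. Centred on reference genes, the change of the vessel difference counted 8 and monolayers at 24 h against 4 h 20. Of all 22096 probe sets, 6124 were called upward and 863 downward for that change, and 3231 rose and 12884 fell in monolayers. In these settings the member counts moved in the same direction as those of all probe sets, but not in every setting. Centred on reference genes, member calls between the vessels at 24 h went from 12 to 10. Of all probe sets, 4316 were then higher and 816 lower, against 1741 and 1432 in the main fit. Leaving out each array gave 0 to 2 and 7 to 12 for the vessels at 4 h and 24 h (7 without monolayer replicate 3 or aggregate replicate 2), 5 to 5 for the change, 8 to 10 and 6 to 8 at 4 h against fresh, 13 to 14 and 10 to 11 at 24 h against fresh, and 11 to 14 and 11 to 13 for 24 h against 4 h. Of all 22096, 1237 were higher and 998 lower between the vessels at 24 h without that monolayer array, and 1128 and 901 without that aggregate array. Between the vessels at 4 h, 486 were higher and 85 lower without aggregate replicate 3, and 1261 and 196 without monolayer replicate 3. The member count was 0 in both of these.

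With the replicate block the counts were 1, 14, 5, 11, 10, 15, 12, 13 and 12 in the same order. Of all 22096 probe sets, 1137 were then higher and 179 lower between the vessels at 4 h, and 2008 and 1640 at 24 h. The change of the vessel difference had 1239 upward and 1807 downward. Against fresh cells at 4 h there were 2208 and 3356 in monolayers and 3363 and 3286 in aggregates. Against fresh cells at 24 h there were 6963 and 4927, and 6572 and 3932. From 4 h to 24 h there were 7404 and 4129, and 5695 and 3169. The block added the lead probe sets of Cldn1 (adjusted p = 0.0254) and Ocln (0.0334) to the calls between the vessels at 24 h, and ended no lead call. Same-numbered arrays of those 2 groups had correlations of 0.125, 0.078 and 0.345, of which 0.078 missed the limit of 0.1. Among lead probe sets, signs changed only in results not called. Centred on reference genes, these were Gja1 at 24 h against fresh (-0.47 and -0.48), the change of the vessel difference of Cldn1 (0.36), Ocln (0.36) and Cdh1 (0.30), Ocln in 24 h aggregates against fresh (-0.016), Cdh1 from 4 h to 24 h (-0.44 and -0.14) and Cdh2 between the vessels at 4 h (-0.022). With array weights they were Cldn1 in 4 h monolayers (0.039), the change for Ocln (0.45) and Cdh1 (0.11) and Cdh2 between the vessels at 4 h (-0.12). With 1 probe set per gene they were Gja1 between the vessels at 24 h (0.74) and from 4 h to 24 h in aggregates (0.45), and centred on the median Cldn3 between the vessels at 4 h (0.039). When each array was left out, 14 results changed sign. For Gja1 they ran from -0.47 to 0.17 (vessels, 24 h), -0.21 to 0.86 (change), -0.033 to 0.32 (24 h aggregates against fresh), -0.98 to 0.089 and -0.34 to 0.15 (24 h against 4 h). For Cldn1 they ran from -0.20 to 0.31 (change) and -0.30 to 0.16 (4 h monolayers), for Ocln from -0.38 to 0.20 (change) and -0.40 to 0.065 (24 h monolayers) and for Cdh1 from -0.24 to 0.10 (change). Between the vessels at 4 h Gjb1 ran from -0.0054 to 0.36, Cldn3 from -0.22 to 0.13 and Cdh2 from -0.17 to 0.26, and Cldn2 in 4 h monolayers from -0.083 to 0.43. The cause of these shifts was not tested. With 3 arrays per group small differences cannot be told from the spread, and signals near background, as those of Cldn4 and Gja1 in fresh cells, set a floor.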
